A study of Arabidopsis thaliana with 8 samples.

Results

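The levels of transcripts in *yucca* seedlings of *Arabidopsis thaliana* treated with brassinolide (BL), the most active brassinosteroid (BR), were compared with those in mock-treated *yucca* seedlings. The comparison rests on 4 of the 8 Affymetrix ATH1 arrays of the series, chosen by their labels, with 2 arrays of *yucca* mock and 2 of *yucca* BR. The labels describe light-grown seedlings aged 10 d that were immersed for 2.5 h in half-strength Murashige medium, alone or with 1 μM BL. The other 4 arrays hold wild-type (WT) seedlings, Col-0, with the same treatments. The dominant *yucca* mutant overproduces auxin through raised expression of a flavin monooxygenase of tryptophan-dependent auxin synthesis. No allele is given in the labels, and all 4 arrays carry the same genotype, so the comparison shows BR treatment on a background of high auxin. The transcript of that enzyme was not analysed here, so the arrays gave no check of the genotype label. RNA came from whole seedlings, in which fewer cells of a type and less RNA per cell cannot be told apart.

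BRs are steroid hormones that bind the receptor kinase BRI1 at the cell surface, and a phosphorylation cascade then frees transcription factors of the BZR1 family to act in the nucleus. These factors repress genes of BR synthesis, a feedback known for this pathway, and activate genes of cell elongation. Auxin acts through another receptor system, in which Aux/IAA repressors are degraded and auxin response factors are released, yet both hormones promote elongation of the hypocotyl.

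Each array holds 22810 probe sets, of which 64 control probe sets were left out. The measured quantity is the rma intensity of a probe set, in arbitrary units on a linear scale, and all fold changes are differences of log2 intensities, BR minus mock. The median intensity of the 4 *yucca* arrays lay between 44.7 and 46.4. Replicate arrays correlated with Pearson r of 0.994 after mock treatment and 0.995 after BR treatment, and the median SD between replicates was 0.102 and 0.0879 on the log2 scale. Arrays of each genotype appear to have been normalized apart from those of the other, as read from values that were equal only within a genotype. Levels were therefore not set against each other between genotypes. The study used 2 biological replicates, and this number limits the precision of every value. Among transcripts of photosynthesis, *RCA*, the activase of Rubisco, stood at 9370 and 9831 on the mock arrays and 9257 and 9919 on the BR arrays. The root transcript *PYK10* stood at 3539 and 3593 after mock and 3834 and 3704 after BR treatment. As markers of tissues that seedlings lack had no measured member, the seedling label was not checked.

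A transcript was called when its adjusted p (Benjamini and Hochberg, over all probe sets) in limma was under 0.10 and its log odds of differential expression, B, were above 0. Of 22746 probe sets, 228 rose (1% of those tested) and 184 fell (0.809%) after BR treatment of *yucca*. Of these, 127 rose (0.558%) and 100 fell (0.44%) at least 2-fold, and 23 rose and 20 fell at least 4-fold. The smallest changes that were called were a rise of 1.56-fold and a fall of 1.57-fold. The transcripts that fell had a median intensity of 193 in mock-treated seedlings and 78.1 after BR treatment, and those that rose went from 105.1 to 251. All probe sets together had a median of 45.5 after mock treatment. The median log2 fold change over all probe sets was 0. BR and mock arrays did not overlap in 41.8% of all probe sets, so the absence of overlap is little evidence on its own. The counts depended on the criteria and on the arrays in the fit. With all 8 arrays in the fit 401 rose and 377 fell, and without the B criterion 430 rose and 396 fell, whereas fits without 1 of the 4 arrays called 81 to 98 rises and 46 to 143 falls. Where a gene lost its call in such a fit, the array left out is given in parentheses, with any for a call lost in each of the 4 fits. Intensities near the lower end of the arrays depend on the background correction, which was probed by adding 16 to every intensity: of the 78 called transcripts named below, 13 then had a fold change that differed by over 1.5 times, and the transcripts that then lost their call are named beside their values.

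Gene lists were counted over their members with a probe set that stands for 1 named gene, called measured here. Names came from the platform annotation for 13484 probe sets and from tables of hormone-responsive transcripts of the study for 485. The second source leans toward responsive genes, since the study drew its BR tables from the WT arrays of this series: of those probe sets 19.6% rose and 12.2% fell in *yucca*, against 0.756% and 0.653% of the probe sets named through the annotation. The naming source is therefore given beside the counts of each list with calls. In the bar chart of called shares, *SAUR*, *XTH* and wall glycoprotein genes stand farthest to the right. Of their measured members 26 of 29, 5 of 15 and all 17 were named through the tables of the study.

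**Figure D1:**
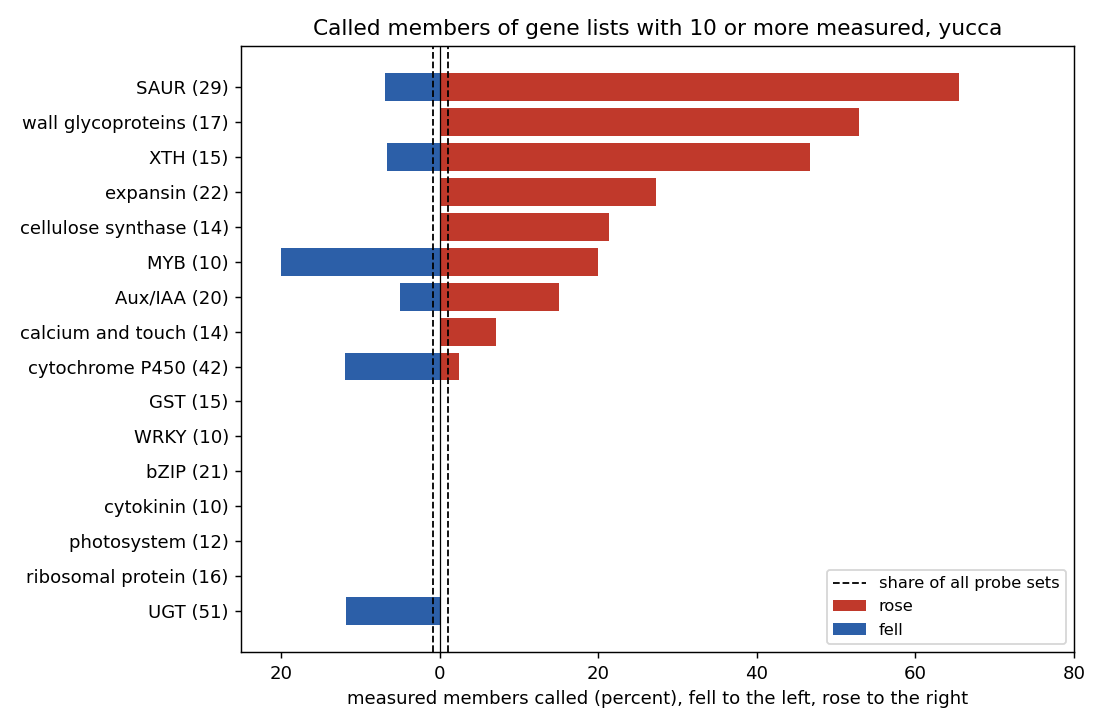
Share of measured members called after BR treatment of *yucca* (x axis, percent, rises in red to the right and falls in blue to the left) for each list with 10 or more measured members, whose number stands in parentheses. The dashed lines mark the shares over all probe sets, 1% for rises and 0.809% for falls, and 6 of the 16 lists show no call in either direction.

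Most measured transcripts of BR synthesis fell in *yucca*. Of 5 measured genes of BR synthesis, 4 fell, none rose, and the median log2 fold change was -2.36, against 0 over all probe sets. *BR6OX2* (At3g30180), a cytochrome P450 of the last steps that lead to BL, measured 158 and 131 on the mock arrays and 10.3 and 10.02 on the BR arrays. It fell by 3.82 log2 units (standard error, SE, 0.127, limma adjusted p = 0.000579), a 14.1-fold fall. Its BR arrays were dim, and with 16 added to every intensity the fall was 6.11-fold. *DWF4* (At3g50660), the C-22 hydroxylase known as the rate-limiting step of the pathway, went from 79.95 and 62.5 to 13.6 and 13.9 and fell by 2.37 (SE 0.144), or by 1.55 with 16 added. *CPD* (At5g05690), another P450 of the pathway, went from 1507 and 1232 to 278 and 254, a fall of 5.13-fold. Mock and BR arrays lay far apart for all of these. *ROT3* (At4g36380), a hydroxylase of the same P450 family, fell by 1.12, from 51.1 and 44.4 to 21.2 and 22.8. *CYP90D1*, which acts beside ROT3, went from 45.9 and 50.2 to 25.99 and 37.7 and did not pass the test (log2 fold change -0.62, limma adjusted p = 0.233). All 5 of these genes were named through the tables of the study, of which 12.2% fell overall. Since all 5 also fell in WT, the measured set leans toward genes lowered by BR.

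Of 4 measured genes of BR inactivation, all named through the tables of the study, 2 rose (50%) and none fell. Among all probe sets so named, 19.6% rose. *BAS1* (At2g26710), a P450 that hydroxylates and so inactivates BL, stood at 51.7 and 38.8 after mock and at 195 and 184 after BR treatment. It rose by 2.08 log2 units (SE 0.159, limma adjusted p = 0.00715). *BEN1* (At2g45400), a reductase that lowers BR levels, rose from 109 and 102 to 199 and 186, by 0.87 (SE 0.107). The other members were *SOB7*, whose arrays overlapped (59.8 and 50.1 against 78.3 and 56.99), and the sulfotransferase gene *SOT12* (log2 fold change -0.91, adjusted p = 0.141). The call of *BEN1* (any) was lost without 1 array, at adjusted p of 0.117 to 0.139.

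Among 7 measured genes of BR perception and signalling, 1 rose (14.3%) and 2 fell (28.6%). The 1 member named through the annotation was not called, and the other 6 were named through the tables of the study. The shares over all probe sets named through those tables were 19.6% and 12.2%. The receptor gene *BRI1* (At4g39400) fell from 542 and 501 to 231 and 218, by 1.22 log2 units (SE 0.108, limma adjusted p = 0.0107). Of its relatives, *BRL3* (At3g13380) measured 20.5 and 17.5 after mock and 12.2 and 10.5 after BR treatment (log2 fold change -0.74, adjusted p = 0.0629), and *BRL2* (At2g01950), which takes part in vascular development, measured 122 and 103 after mock and 140.2 and 116 after BR treatment (log2 fold change 0.19). Neither was called, and the arrays of *BRL2* overlapped. The probe sets named for genes of the BZR1 family moved apart. That of *BZR1* (At1g75080) rose from 545 and 605 to 1218 and 1246, by 1.10 (SE 0.109). It is of a type, marked by the suffix _s_at, that can take up transcripts of more than 1 gene. The rise can therefore not be assigned to *BZR1* alone. *BEH2* (At4g36780) fell from 126 and 115 to 19.2 and 15.5, by 2.80 (SE 0.139), or by 2.04 with 16 added, and *BEH1* had a log2 fold change of -0.98 (adjusted p = 0.068) without a call. The call of *BZR1* (mock 1, BR 2) was lost without 1 array, at adjusted p of 0.103 to 0.111. The plot of these genes by array shows synthesis, inactivation and signalling side by side.

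**Figure D2:**
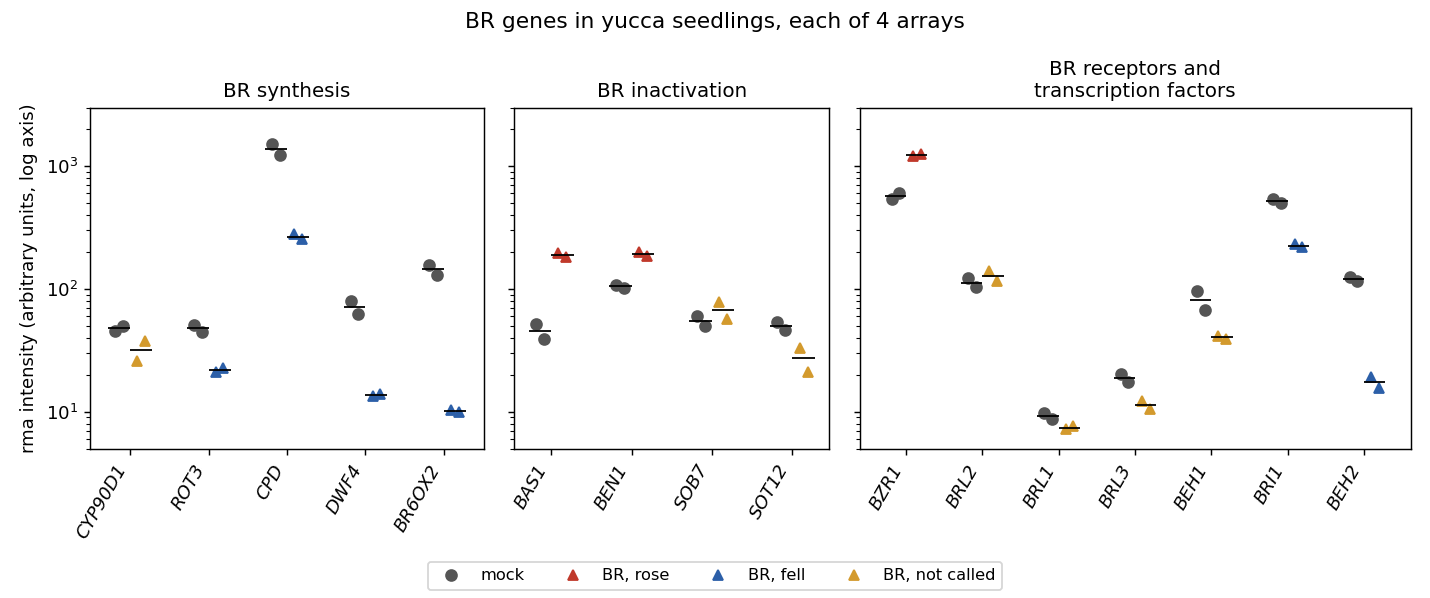
Intensity (y axis, arbitrary units, logarithmic) on each of the 4 *yucca* arrays for measured genes of BR synthesis, inactivation and signalling, with mock as circles, BR as triangles and the mean of each pair as a bar. *BR6OX2* drops from 158 and 131 to 10.3 and 10.02, while *BAS1* rises from 51.7 and 38.8 to 195 and 184.

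Of 5 measured bHLH genes of growth control, 4 of them named through the tables of the study, 1 fell (20%) and none rose. For all probe sets so named the shares were 12.2% and 19.6%. *IBH1* (At2g43060), an inhibitor of cell elongation, fell from 328 and 258 to 103 and 78.6, by 1.69 log2 units (SE 0.182, limma adjusted p = 0.0177). *BEE1* (At1g18400), a bHLH protein required for full BR response, measured 205 and 192 after mock and 306 and 356 after BR treatment. Its arrays did not overlap, but its log2 fold change of 0.73 (adjusted p = 0.0493) missed the B criterion, and with all 8 arrays in the fit it was called (adjusted p = 0.00779). *BEE2* and *BEE3* had log2 fold changes of 0.65 and 0.53 without a call. *RGF9* (At5g64770), which encodes a secreted peptide of the root meristem growth factor family, rose from 46.05 and 56.9 to 196 and 231, by 2.06 (SE 0.151). The call of *IBH1* (mock 1) was lost without 1 array, at adjusted p = 0.108.

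The small auxin-upregulated RNA (*SAUR*) genes encode short proteins, some of which promote cell expansion, and many of the genes are induced by auxin within minutes. In *yucca*, where auxin is already high, BR treatment raised 19 of the 29 *SAUR* transcripts measured and lowered 2, and 8 were not called. The median log2 fold change of the measured members was 1.34, against 0 over all probe sets, and 7 of the 12 largest rises among all probe sets were theirs. Of the measured members 26 were named through the tables of the study, of which 19.6% rose overall. Among the other 3, named through the annotation, 1 rose and the median was 0. The median of 1.34 thus describes a set that leans toward responsive genes. *SAUR9* (At4g36110) measured 68.2 and 54.9 on the mock arrays and 403 and 436 on the BR arrays, and rose by 2.78 log2 units (SE 0.139, limma adjusted p = 0.00337). *SAUR10* (At2g18010), named through the annotation, rose from 8.35 and 9.99 to 52.9 and 60.02, by 2.62 (SE 0.136). *SAUR15* (At4g38850), also known as *SAUR-AC1*, rose from 49.4 and 37.1 to 226 and 243, by 2.45 (SE 0.1596). For each of these the lowest BR array was over 4 times the highest mock array. *SAUR10* was dim after mock treatment, at the 16.1th percentile of all probe sets, and its log2 fold change was 1.52 with 16 added to every intensity.

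Rises of *SAUR* genes lay in runs of neighbouring loci. On chromosome 1, all 4 measured genes from At1g29430 to At1g29460 rose, by 1.74 to 2.18 on the log2 scale, as did all 3 from At1g29490 to At1g29510, by 1.61 to 2.44. The strongest of the latter, At1g29490, went from 16.7 and 17.9 to 97.1 and 91.2, and *SAUR65* (At1g29460) from 12.4 and 9.63 to 54.6 and 44.9. On chromosome 4 the 3 measured genes from At4g38840 to At4g38860 rose by 1.19 to 2.45, with *SAUR16* (At4g38860) going from 63.6 and 35.5 to 225 and 249. On chromosome 3 *SAUR27* (At3g03840) and *SAUR28* (At3g03830) rose by 2.30 and 1.72, and the BR arrays of *SAUR27* differed from each other (49.2 and 88.02). Copies in such runs are alike in sequence, and a probe set can take up transcripts of more than 1 of them, so single members are uncertain. The calls of *SAUR16* (BR 2) and *SAUR27* (mock 1, mock 2) were lost without 1 array, at adjusted p of 0.115 to 0.145. With 16 added, *SAUR27* was not called (adjusted p = 0.0874), and the log2 fold changes of At1g29490 and *SAUR65* were 1.72 and 1.28.

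The family did not move as a whole. *SAUR46* (At2g37030) fell from 65.3 and 67.2 to 16.03 and 21.96, by 1.82 log2 units (SE 0.167, limma adjusted p = 0.0123). *SAUR36* (At2g45210) fell from 202 and 140.5 to 74.4 and 58.7, by 1.35 (SE 0.208). *SAUR59* measured 164 and 118 after mock and 68.1 and 47.9 after BR treatment, for a log2 change of -1.29 that did not pass the test (adjusted p = 0.0587). Fits without 1 array called 13 to 15 rises in the family. The calls of *SAUR46* (mock 1, mock 2) and *SAUR36* (mock 1, BR 1, BR 2) were lost without 1 array, at adjusted p of 0.0904 to 0.2. With 16 added *SAUR36* was not called (adjusted p = 0.0947), nor with the dimmest 25% of probe sets left out or a robust variance model.

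Of 20 measured *Aux/IAA* genes, which encode repressors of auxin response and are themselves auxin-induced, 3 rose, 1 fell and 16 were not called. The median log2 fold change was 0.16, and none of the 7 members named through the annotation was called. All calls were among the 13 named through the tables of the study, of which 19.6% rose and 12.2% fell overall. The 3 rises and 1 fall among these 13 lie near those shares. *IAA6* (At1g52830) rose from 21.96 and 21.6 to 107 and 107, by 2.29 log2 units (SE 0.0997, limma adjusted p = 0.00207), or by 1.70 with 16 added. *IAA19* (At3g15540) rose from 192 and 189 to 452 and 477, by 1.29 (SE 0.102). *IAA3* (At1g04240) rose from 85.8 and 96.9 to 178 and 182, by 0.98. The replicates of all 3 were close. *IAA26* (At3g16500) fell from 167 and 171 to 77.7 and 82.5, by 1.07 (SE 0.103), and *IAA5* measured 26.1 and 32.1 after mock and 48.1 and 81.4 after BR treatment, for a log2 change of 1.11 with BR arrays too far apart for a call (adjusted p = 0.124). The call of *IAA3* (mock 1, BR 1, BR 2) was lost without 1 array, at adjusted p of 0.0942 to 0.135.

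The *GH3* genes encode enzymes that join amino acids to auxin and so take it out of the active pool. Of 7 measured, 2 fell (28.6%, against 0.809% of all probe sets) and none rose. Both that fell were among the 5 named through the annotation, a source of which 0.653% fell. *GH3.17* (At1g28130) fell from 154 and 162 to 39.7 and 31.2, by 2.17 log2 units (SE 0.144, limma adjusted p = 0.0047). *GH3.5* (At4g27260) fell from 958 and 940.3 to 347 and 281, by 1.60 (SE 0.134). *GH3.1*, *GH3.3* and *GH3.4* had log2 fold changes of 0.49, 0.12 and 0.53, none of them called. Both measured auxin response factor genes lay lower without a call, *ARF16* (At4g30080) with a log2 fold change of -0.67 (adjusted p = 0.0886) and *ARF8* (At5g37020) with -0.65 (adjusted p = 0.0466). With all 8 arrays in the fit, *ARF16* and *ARF8* were called (adjusted p = 0.0112 and 0.00624).

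Of 5 measured genes of auxin transport, 3 fell, none rose, and all 5 lay lower after BR treatment. *LAX3* (At1g77690), an auxin influx carrier of the AUX1 family, fell from 313 and 282 to 98.5 and 72.4, by 1.81 log2 units (SE 0.1698, limma adjusted p = 0.0135). The efflux carrier gene *PIN3* (At1g70940) fell from 759.6 and 706 to 384 and 392.5, by 0.92 (SE 0.104). *ABCB1* (At2g36910), a transporter of the ABC class that exports auxin, fell from 519 and 479 to 263 and 286, by 0.86 (SE 0.111). Mock and BR arrays did not overlap for any of the 5, nor did they for 41.8% of all probe sets. *PIN4* (At2g01420) measured 577 and 503 after mock and 308 and 337 after BR treatment (log2 fold change -0.74, adjusted p = 0.0476), and *PIN7* (At1g23080) measured 477 and 533 after mock and 304 and 383 after BR treatment (log2 fold change -0.56, adjusted p = 0.163), neither called. *PIN4* was called with all 8 arrays in the fit (adjusted p = 0.00265). All 5 were named through the tables of the study, of which 12.2% fell overall. All 5 also fell in WT, so the measured set leans toward genes lowered by BR. The calls of *LAX3* (mock 1), *PIN3* (any) and *ABCB1* (any) were lost without 1 array, at adjusted p of 0.105 to 0.147.

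**Figure D3:**
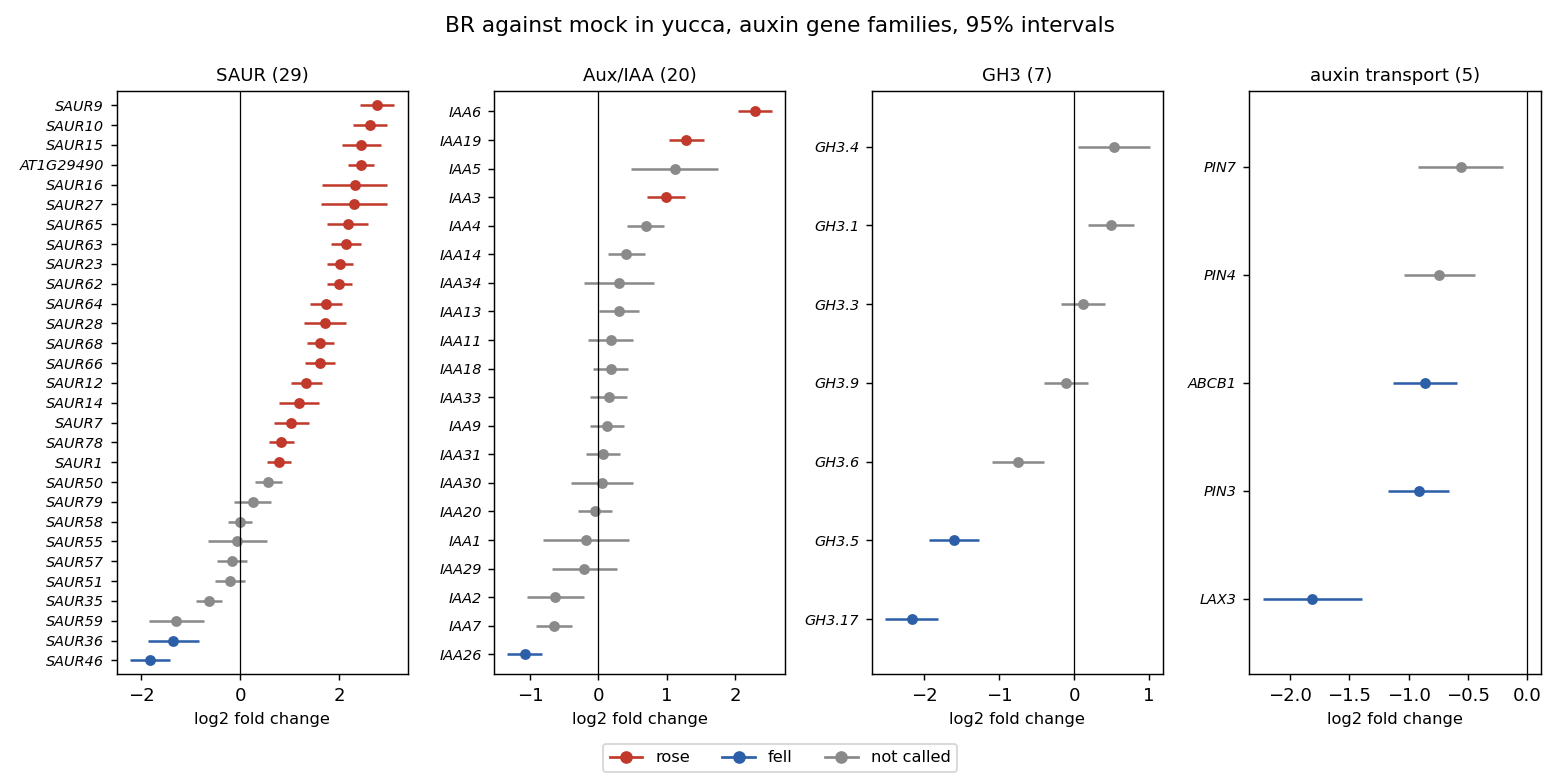
Log2 fold change, BR against mock in *yucca* (x axes, scaled apart in each panel), of each measured *SAUR*, *Aux/IAA*, *GH3* and auxin transport gene, with its 95% interval from the limma fit. Points are red where the transcript rose, blue where it fell and grey where it was not called: 19 *SAUR* genes are red, and all 5 transport genes lie left of 0. Names of 26 of the 29 *SAUR* and all 5 transport genes came from the tables of the study.

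The largest rise of any probe set was that of *XTH19* (At4g30290), which encodes an enzyme of cell wall loosening. XTH enzymes cut and rejoin xyloglucan, the polymer that ties cellulose microfibrils together. *XTH19* measured 13.1 and 13.1 on the mock arrays, which gave the same value to every digit, and 306 and 322 on the BR arrays. It rose by 4.58 log2 units (SE 0.102, limma adjusted p = 0.000278), or 23.9-fold, from the 26.8th percentile of all mock intensities, and by 11.3-fold with 16 added to every intensity. Of 15 measured *XTH* genes 7 rose (46.7%) and 1 fell (6.67%), against 1% and 0.809% of all probe sets. Their median log2 fold change was 0.99. Of the 10 named through the annotation, with a median of 0.20, 4 rose, against 0.756% of all probe sets so named. *XTH17* (At1g65310) rose from 115 and 92.4 to 496 and 489, by 2.26 (SE 0.136), and *XTH33* (At1g10550) from 57.1 and 42.4 to 215 and 206, by 2.096 (SE 0.162). *XTH24* (At4g30270), a close neighbour of *XTH19* on chromosome 4, fell from 2879 and 2266 to 1313 and 1089, by 1.09 (SE 0.162, limma adjusted p = 0.0369). *XTH22*, known as a touch gene, had a log2 fold change of 0.99 without a call. The call of *XTH24* (any) was lost without 1 array, at adjusted p of 0.0901 to 0.196. It was also lost with 16 added (adjusted p = 0.0749).

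Expansins loosen the wall without cutting its polymers. Of 22 measured expansin genes 6 rose (27.3%, against 1% of all probe sets), none fell, and the median log2 fold change was 0.10. Of the 19 named through the annotation 4 rose, against 0.756% of all probe sets so named. The rises came from a small number of members, while the other 16 lay between -0.36 and 0.47 on the log2 scale. The whole expansin-like A group rose. *EXLA2* (At4g38400) went from 61.6 and 48.6 to 253 and 303, by 2.34 (SE 0.161, limma adjusted p = 0.005). *EXLA1* (At3g45970) went from 199 and 142 to 547 and 499.6, by 1.64 (SE 0.179), and its neighbour *EXLA3* rose by 1.22. Among the alpha-expansins, *EXPA11* (At1g20190) rose from 153 and 153 to 386 and 399, by 1.36 (SE 0.1004), with replicates close together. *EXPA8* and *EXPA5* rose by 1.30 and 0.99. The root hair expansins *EXPA7* and *EXPA18* had log2 fold changes of 0.12 and 0.08 without a call.

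Structural glycoproteins form another part of the wall. Of 17 measured genes for arabinogalactan proteins, fasciclin-like proteins, extensins and leucine-rich repeat extensins, 9 rose, none fell and 8 were not called, with a median log2 fold change of 0.89. All 17 were named through the tables of the study, of which 19.6% rose overall. *LRX2* (At1g62440), a leucine-rich repeat extensin of root hair walls, rose from 24.2 and 18.4 to 90.03 and 90.7, by 2.098 log2 units (SE 0.154, limma adjusted p = 0.0066). The arabinogalactan protein gene *AGP4* (At5g10430) rose from 404 and 342 to 1390 and 1647, by 2.02 (SE 0.141). *AGP18* (At4g37450) rose from 194 and 226 to 658 and 753, by 1.75 (SE 0.131). The extensin genes *EXT6*, *EXT10* and *EXT13*, in contrast, had log2 fold changes of -0.04, 0.41 and -0.03 without a call. Fits without 1 array called 5 or 6 rises in this list.

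Most measured genes of wall synthesis did not pass the test. Of 14 measured cellulose synthase and related genes 3 rose (21.4%, against 1% of all probe sets) and none fell. All 14 had log2 fold changes above 0, with a median of 0.47. Of the 9 named through the annotation, with a median of 0.30, 2 rose, against 0.756% of all probe sets so named. *CESA5* (At5g09870), a cellulose synthase of the primary wall, rose from 189.8 and 186 to 314 and 339, by 0.80 log2 units (SE 0.105, limma adjusted p = 0.0277). *CSLC4* (At3g28180), of the *CSLC* group that makes the xyloglucan backbone, rose from 392.5 and 372 to 602 and 675, by 0.74 (SE 0.113), and *CSLC5* (At4g31590) of the same group rose by 0.94 (SE 0.128). Of 9 measured pectin genes, *PME41* (At4g02330), a pectin methylesterase, rose from 50.9 and 35.1 to 184 and 167, by 2.06 (SE 0.191), and the others did not pass the test, 5 of them also named through the annotation. The calls of *CESA5* (any), *CSLC4* (any) and *CSLC5* (mock 1, mock 2, BR 2) were lost without 1 array, at adjusted p of 0.113 to 0.25. *CSLC4* was also not called with equal array medians or with the dimmest 25% of probe sets left out (adjusted p = 0.0383 and 0.0365), where it missed the B criterion.

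The EXORDIUM family, named for a gene that promotes leaf growth under BR, divided. Of 6 measured members, 5 of them named through the tables of the study, 4 rose (66.7%) and 2 fell (33.3%). The shares over all probe sets so named were 19.6% and 12.2%. The 1 member named through the annotation rose. *EXO* (At4g08950) rose from 598 and 542 to 1469 and 1552, by 1.41 log2 units (SE 0.110, limma adjusted p = 0.00744), and *PHI-1* (At1g35140) from 238 and 224 to 653 and 519, by 1.33 (SE 0.141). *EXL3* (At5g51550) rose by 0.86 (SE 0.1104). *EXL4* (At5g09440) fell from 799 and 709 to 174 and 133, by 2.30 (SE 0.1595, limma adjusted p = 0.00509). *EXL2* (At5g64260) fell from 1587 and 1331 to 434 and 334, by 1.93 (SE 0.167). No array of either group overlapped with the other in any of the 6. The calls of *PHI-1* (mock 1, mock 2) and *EXL3* (any) were lost without 1 array, at adjusted p of 0.108 to 0.145.

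**Figure D4:**
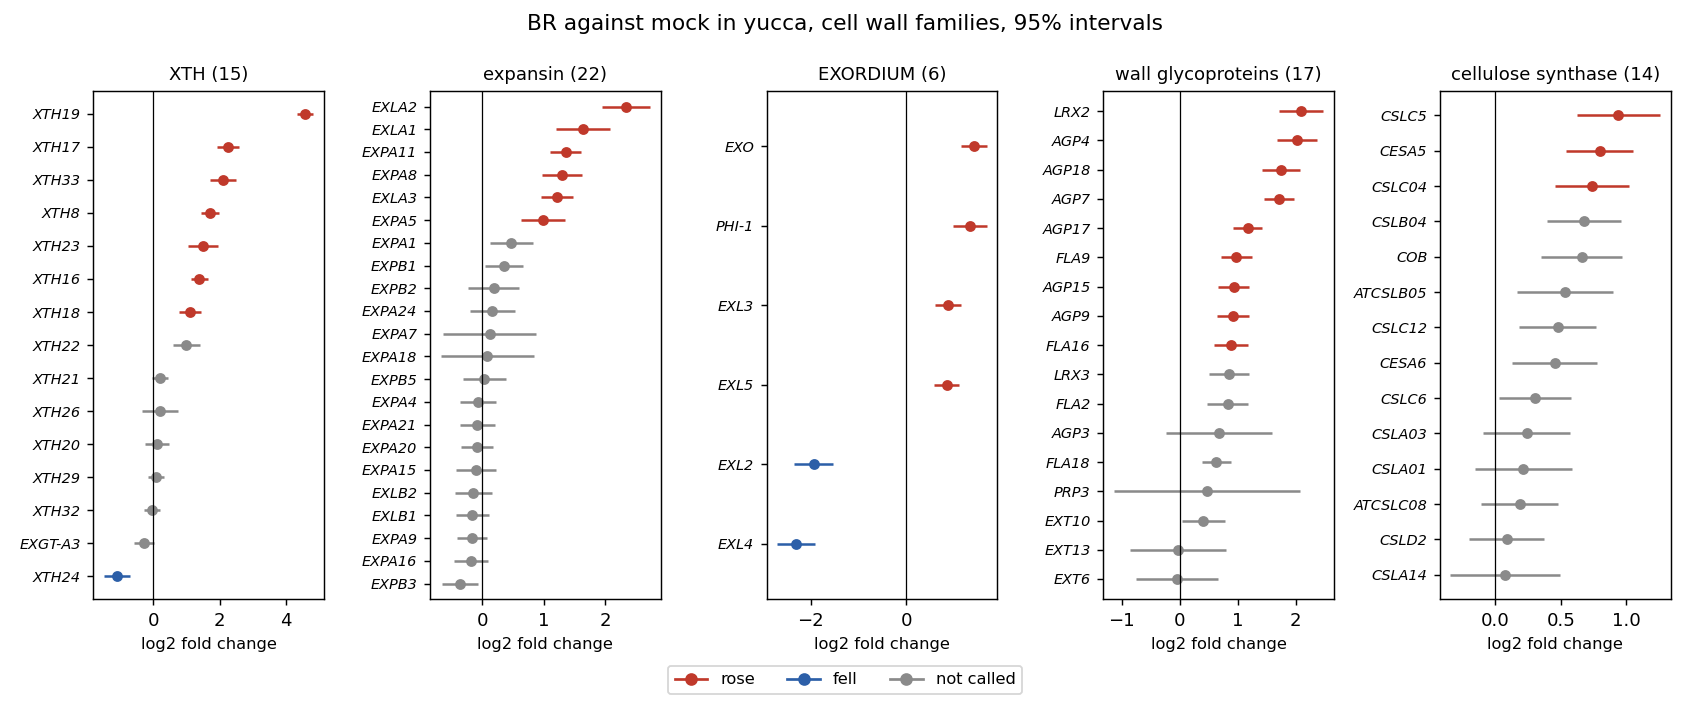
Log2 fold change, BR against mock in *yucca* (x axes, scaled apart in each panel), of each measured gene of 5 cell wall families, with its 95% interval from the limma fit. Red points rose, blue points fell and grey points were not called: *XTH19* lies apart at 4.58, and *EXL2* and *EXL4* fell while the other 4 members of their family rose.

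The 2 largest falls were of genes without an assigned role. At5g01740, annotated as a wound-inducible protein, measured 792 and 713 on the mock arrays and 32.6 and 34.7 on the BR arrays, a fall of 4.48 log2 units (SE 0.112, limma adjusted p = 0.000278), or 22.3-fold. At5g57785, an expressed protein of unknown function, fell from 419.6 and 449 to 21.5 and 18.4, by 4.45 (SE 0.123), or by 3.65 with 16 added. Both of these genes were named through the annotation. The MYB transcription factor gene *MYB55* (At4g01680) fell from 149 and 147 to 17.9 and 17.7, by 3.05 (SE 0.0997, limma adjusted p = 0.000579), or by 2.28 with 16 added. At3g23550, annotated as a transporter, fell by 2.56, and At1g32190, a hypothetical protein, by 2.39. *PDS1* (At1g06570), the 4-hydroxyphenylpyruvate dioxygenase that supplies plastoquinone and tocopherol synthesis, fell from 764 and 717 to 175 and 144, by 2.22 (SE 0.131).

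UDP-glycosyltransferases (UGTs) attach sugars to hormones, phenolics and foreign compounds. All 51 measured *UGT* genes were named through the annotation, and 6 fell (11.8%, against 0.653% of annotation-named probe sets) and none rose, with a median log2 fold change of -0.07. *UGT73B4* (At2g15490) fell from 94.5 and 72.8 to 17.4 and 10.4, by 2.62 log2 units (SE 0.263, limma adjusted p = 0.0154). Its neighbour on chromosome 2, *UGT73B5* (At2g15480), fell from 718 and 681 to 244 and 139, by 1.92 (SE 0.259). *UGT72B1* (At4g01070), which glycosylates monolignols and foreign phenols, fell from 451 and 394 to 119 and 73.9, by 2.17 (SE 0.232). In all 3 the second BR array was the lowest of the 4. *UGT85A2* fell 2.93-fold, and the neighbours *UGT76E11* and *UGT76E12* on chromosome 3 fell 2.34-fold and 2.297-fold, so 4 of the 6 lay in neighbouring pairs that a probe set may not separate. The count depended on single arrays, with 7 falls without the first BR array, 3 without the second BR or the second mock array and 0 without the first mock array. The calls of *UGT73B4* (mock 1), *UGT73B5* (mock 1, mock 2) and *UGT72B1* (mock 1, mock 2) were lost without 1 array, at adjusted p of 0.108 to 0.174. With 16 added *UGT73B5* was not called (adjusted p = 0.0731), and *UGT73B4* fell by 1.74.

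Few genes of nutrient uptake and light response were measured. Of 8 measured genes of nutrient uptake, 7 of them named through the tables of the study, 3 fell (37.5%) and none rose. The share that fell over all probe sets so named was 12.2%. *NRT1.7* (At1g69870), a nitrate transporter of the phloem, fell from 141 and 109 to 45.8 and 37.5, by 1.58 log2 units (SE 0.170, limma adjusted p = 0.0177). *NRT1.11* (At1g52190), another transporter of that family, fell by 1.07 (SE 0.107), and *NIA1* (At1g77760), nitrate reductase, went from 3481 and 3560 to 1652 and 1986, by 0.96 (SE 0.127). Of 7 measured light genes 1 rose (14.3%) and 2 fell (28.6%), and of the 2 named through the annotation 1 rose and 1 fell. The other 5 were named through the tables of the study, with shares of 19.6% and 12.2% over all probe sets so named. *HYH* (At3g17609), a bZIP factor of photomorphogenesis, fell by 1.01 (SE 0.138) and the B-box gene *BBX27* (At1g68190) by 0.94 (SE 0.132). *DRT100* (At3g12610), a leucine-rich repeat protein, rose from 354 and 309 to 764 and 914, by 1.34 (SE 0.138). The photoreceptor genes *PHOT1* (At3g45780) and *PHYE* (At4g18130) had log2 fold changes of -0.48 and -0.51 without a call, and the phytochrome-binding *PKS4* (At5g04190) one of 1.14 (adjusted p = 0.0606), also without a call. With 16 added to every intensity *PHOT1* was called (adjusted p = 0.0502) and *HYH* and *BBX27* were not (adjusted p = 0.0586 and 0.0619), and *PKS4* was called with all 8 arrays in the fit (adjusted p = 0.00397). The calls of *NRT1.7* (mock 1, BR 2), *NRT1.11* (mock 1, BR 2), *NIA1* (mock 1, mock 2, BR 1), *HYH* (mock 2, BR 1, BR 2), *BBX27* (any) and *DRT100* (mock 2) were lost without 1 array, at adjusted p of 0.103 to 0.158.

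Single transcription factor genes of other families were also called. Of 10 measured *MYB* genes, all named through the tables of the study, 2 rose and 2 fell, against 19.6% and 12.2% of all probe sets so named. Among them was *MYBL2* (At1g71030), a repressor of anthocyanin synthesis, which fell from 1183 and 840 to 381 and 352, by 1.44 log2 units (SE 0.179, limma adjusted p = 0.0242). *MYB6* (At4g09460) and *MYB50* (At1g57560) rose by 0.89 and 0.87. *HAT1* (At4g17460), an HD-ZIP class II factor, fell from 290.1 and 228 to 93.3 and 60.4, by 1.77 (SE 0.233). Of 9 measured *NAC* genes, 8 of them named through the tables of the study, 2 fell and none rose. The stress-induced *RD26* (At4g27410) fell by 1.10 (SE 0.138) and *NAC083* (At5g13180) by 0.93 (SE 0.124). The share that fell was 22.2%, against 12.2% of probe sets named through those tables. *ESE3* (At5g25190), an AP2/ERF factor, rose from 29.9 and 41.7 to 143 and 205, by 2.28 (SE 0.2295), alone among 6 measured genes of that family, none of them named through the annotation. The calls of *MYBL2* (BR 1, BR 2), *MYB6* (any), *MYB50* (any), *HAT1* (mock 1, mock 2), *RD26* (mock 1, BR 1, BR 2), *NAC083* (any) and *ESE3* (mock 1) were lost without 1 array, at adjusted p of 0.0874 to 0.202. With 16 added *MYBL2*, *MYB6*, *MYB50* and *HAT1* were not called (adjusted p of 0.0586 to 0.099), and with the dimmest 25% of probe sets left out *MYB6* and *MYB50* missed the B criterion, as *MYB50* did with an intensity trend.

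Among genes of other hormones, 2 of 5 measured ethylene genes were called (4 of the 5 named through the tables of the study). Both were for ACC synthases, which make the precursor of ethylene, and they changed in opposite directions. The shares were 20% for rises and 20% for falls, against 19.6% and 12.2% of probe sets named through those tables. *ACS4* (At2g22810) rose from 37.6 and 48.4 to 131 and 223, by 2.002 log2 units (SE 0.268, limma adjusted p = 0.0288). *ACS11* (At4g08040) fell from 53.7 and 30.1 to 9.01 and 9.86, by 2.09 (SE 0.267). The replicates of both were far apart, in the BR arrays of *ACS4* and the mock arrays of *ACS11*. With all 8 arrays in the fit *ACS4* was not called (adjusted p = 0.0147). With 16 added neither was called (adjusted p = 0.0844 for *ACS4* and 0.113 for *ACS11*, which then fell by 1.16). *JAZ3* (At3g17860), a repressor of jasmonate response, fell by 0.88, *TT5* (At3g55120), the chalcone isomerase of flavonoid synthesis, by 0.76, and *TCH2* (At5g37770), a touch-induced calmodulin-like protein, rose by 0.93. The calls of *ACS4* (mock 1, mock 2), *ACS11* (BR 1, BR 2), *JAZ3* (any), *TT5* (any) and *TCH2* (any) were lost without 1 array, at adjusted p of 0.101 to 0.211. *JAZ3* and *TCH2* also lost theirs with 16 added (adjusted p = 0.0635 and 0.0569), and *JAZ3* with an intensity trend (adjusted p = 0.0343).

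Several groups gave no call. None of 12 measured photosystem genes was called, with log2 fold changes between -0.08 and 0.48, nor any of 16 ribosomal protein, 21 bZIP, 15 glutathione transferase, 10 *WRKY*, 10 cytokinin or 7 gibberellin genes. Log2 fold changes spanned -1.79 to 1.16 among *WRKY* and -1.56 to 0.38 among glutathione transferase genes. With all 8 arrays in the fit 1 *WRKY* gene rose and 1 fell, and 1 gibberellin and 1 bZIP gene rose. Among photosystem genes, *LHCB4.1* measured 6950 and 7069 after mock and 7309 and 7555 after BR treatment, and *PSAE-1* 6562 and 6736 and 6449 and 6925. None of 4 measured root markers was called, with log2 fold changes of 0.08 to 0.16. Shoot markers and markers of tissues that seedlings lack had no measured member. The 8 measured genes of aliphatic glucosinolate synthesis all lay lower after BR treatment, between -0.64 and -0.17 on the log2 scale, and none was called. Of these 8, 6 were named through the tables of the study. *MAM1*, which starts the chain elongation of methionine, measured 494 and 351 after mock and 339 and 245 after BR treatment (limma adjusted p = 0.39), and *CYP83A1*, a P450 of the core pathway, 419 and 299 after mock and 313 and 202 after BR treatment with overlapping arrays. Their replicates lay farther apart than the median SD of all probe sets.

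The same treatment of WT, measured against its own mock arrays, raised 342 transcripts (1.5% of probe sets) and lowered 297 (1.31%) at the same criteria. Of the 228 that rose in *yucca*, 155 (68%) also rose in WT, which is 45.3% of the WT list. Of the 184 that fell, 108 (58.7%) also fell in WT, 36.4% of the WT list, and 0 probe sets were called in opposite directions. Of the probe sets named through the annotation, whose names do not rest on the WT response, 66 of the 102 that rose and 49 of the 88 that fell in *yucca* were called in WT in the same direction. Across all probe sets the responses of the genotypes had a Pearson r of 0.62, given as a description, since probe sets are not replicates. The 342 transcripts that rose in WT were chosen on arrays that do not enter the *yucca* fit, and 327 of them (95.6%) were higher after BR treatment in *yucca*, with a median log2 fold change of 0.79. Of the 297 that fell in WT, 291 (98%) were lower in *yucca*, with a median of -0.66. Over all 22746 probe sets, 11323 were higher and 11301 lower after BR treatment in *yucca*. Transcripts called in WT alone, 187 of the rises and 189 of the falls, had median log2 fold changes of 0.55 and -0.51 in *yucca*.

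For single genes the difference between responses was tested over all 8 arrays as an interaction, *yucca* minus WT. Of 22746 probe sets, 2 had a higher log2 fold change in *yucca* (0.00879%) and 4 a lower one (0.0176%), while 1768 had an unadjusted p under 0.05 in limma. These counts depended on the variance model and on single arrays, with 16 higher and 31 lower under an intensity trend, 18 and 128 without the first *yucca* BR array and 5 and 26 without the second *yucca* mock array. With a term for the replicate number within each genotype (replicate block) in the model, the counts were 68 higher and 111 lower. *XTH19* rose by 4.58 in *yucca* and by 1.91 in WT, a difference of 2.67 (SE 0.153, limma adjusted p = 0.000665). In WT its intensities went from 148 and 122 to 514 and 502. At5g22580, an unknown protein, fell in both genotypes, from 821 and 816 to 482 and 449.7 in *yucca* and from 502 and 434 to 98.3 and 77.7 in WT. Its log2 fold changes were -0.81 and -2.42, a difference of 1.60 (SE 0.181, adjusted p = 0.0369). The call of this difference was lost without the second *yucca* BR array (adjusted p = 0.115) and that of the fall in *yucca* without any 1 of the 4 arrays.

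*EXL4* fell further in *yucca*, by 2.30 against a log2 fold change of -0.56 in WT, where it went from 793 and 777 to 532 and 531. The difference was -1.74 (SE 0.185, limma adjusted p = 0.0369). The remaining calls were 3 probe sets with no gene named here, 251176_at, 252265_at and 261934_at, all of which fell in *yucca* and were not called in WT. In WT 252265_at and 261934_at lay higher after BR treatment, by 0.46 and 0.42 (limma adjusted p = 0.031 and 0.029), and missed only the B criterion. The falls in *yucca* lost their call without either BR array for 252265_at and without either mock array for 261934_at, and both lost it with 16 added (adjusted p = 0.0625 and 0.0571). Their differences were -2.08, -2.45 and -1.94 on the log2 scale. Probe set 252265_at went from 489.9 and 300.2 to 92.9 and 101 in *yucca*, and from 28.1 and 30.4 to 39.3 and 41.3 in WT. Without the first WT mock array none of the 6 was called (adjusted p = 0.00533 for *XTH19*, which missed the B criterion, 0.102 for 251176_at and 0.359 for the others), and without another WT array 1 or 2 of them were. The difference of 252265_at was also not called without the second *yucca* BR array (adjusted p = 0.115).

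Several genes whose log2 fold change had a larger size in *yucca* than in WT did not pass this test in the main fit of all 8 arrays. For *UGT73B4* the log2 fold change was -2.62 in *yucca* and -0.63 in WT, for *UGT73B5* -1.92 and -0.60, and for *UGT72B1* -2.17 and -0.76. For *EXPA11* it was 1.36 and 0.46, for *PME41* 2.06 and 0.73, and for *LAX3* -1.81 and -0.80. None of these had an interaction call (adjusted p from 0.159 to 0.335 in limma). Under an intensity trend *UGT73B4* and *EXPA11* were called (adjusted p = 0.0682 and 0.0541). With the replicate block *UGT73B4*, *UGT72B1*, *EXPA11*, *PME41* and *LAX3* were called (limma adjusted p from 0.0103 to 0.0567), and *UGT73B5* was not (adjusted p = 0.111). Without the first *yucca* BR array all of these but *PME41* were called (adjusted p from 0.00681 to 0.0935), and without the second *yucca* mock array or with equal array medians *UGT73B4* was (adjusted p = 0.0995 and 0.0915). The 95% intervals of the difference, unadjusted for the number of probe sets, ran from -2.67 to -1.30 for *UGT73B4* and from 0.57 to 1.23 for *EXPA11*. Of the 8 measured aliphatic glucosinolate genes 7 fell in WT and 0 in *yucca*. Through the tables of the study, whose BR part was drawn from WT, 6 of the 8 were named. These counts therefore do not show a genotype difference. For *MAM1* the difference was 0.64 (95% interval 0.01 to 1.27, limma adjusted p = 0.638). The feedback genes of BR synthesis had differences of -0.55 for *BR6OX2*, -0.26 for *CPD* and 0.26 for *DWF4*, with 95% intervals of -1.06 to -0.03, -0.63 to 0.11 and -0.16 to 0.68. For *SAUR9* the difference was -0.08 (95% interval -0.56 to 0.39). Neither it nor the feedback genes had an interaction call (limma adjusted p from 0.631 to 0.957). With 16 added to every intensity the differences were 0.001 for *BR6OX2*, -0.22 for *CPD*, 0.58 for *DWF4* and 0.19 for *SAUR9*, again without a call.

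**Figure D5:**
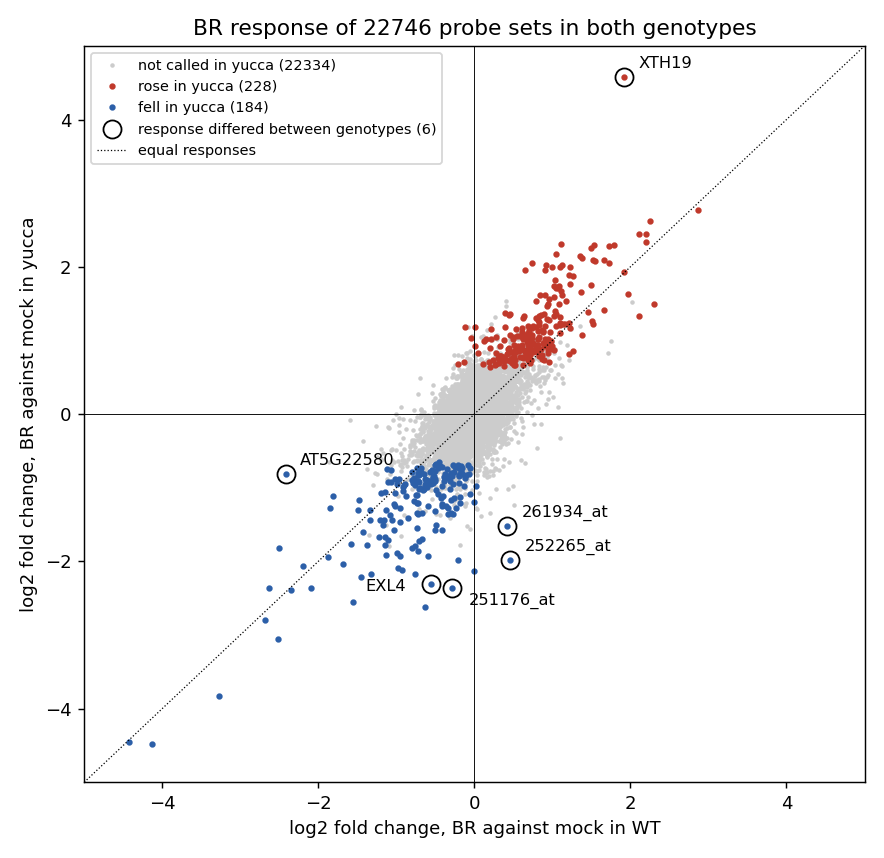
Log2 fold change, BR against mock, in WT (x axis) and in *yucca* (y axis) for each of 22746 probe sets, colored by the call in *yucca*, with the dotted line where both are equal. Open circles mark the 6 probe sets whose response differed between the genotypes, with *XTH19* above the line and *EXL4* below it.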

How the data were processed

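RNA of WT and *yucca* seedlings with and without BL was measured on 8 Affymetrix ATH1 arrays, of which the 4 *yucca* arrays entered the main comparison. The authors made the deposited intensity values by rma, in which background correction and quantile normalization come before the probes of a probe set are summarized, and the table holds them on the linear scale. Between arrays of a genotype 19 to 86 probe sets had equal values and between genotypes 0 did, from which it was read that each genotype was normalized separately. The labels give an age of 10 d, which differs by a day from the methods of the study. Precision is limited by having 2 arrays in each group.

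The model, from limma 3.58.1 (R 4.3.3), held 1 mean per group on log2 intensities of 22746 probe sets (2 residual and 3.83 prior degrees of freedom) and an assumed proportion of changed genes of 0.01. The interaction was fitted over all 8 arrays with 4 group means. Tests were two-sided. The fits were tested on simulated data. Of the probe sets, 503 stood for several genes, 29 for a gene without a locus and 8245 for no gene named here, and all were tested. For a gene with several probe sets the one with the highest mean log2 intensity was used, and no list member had a second. Where the annotation and the tables of the study both named a probe set, 441 of 447 loci were the same.

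The members, the gene lists and the tests were chosen with earlier results of these data known. Named genes were those the study names in its text, the 12 largest rises and 12 largest falls, up to 3 called members per list and direction, uncalled members of lists with few calls, and the interaction calls. Replicate numbers come from the titles. Alternatives were a fit of all 8 arrays, a replicate block, quantile normalization within a genotype, equal array medians, 16 added to each intensity, the dimmest 25% of probe sets left out, an intensity trend, a robust variance model, other thresholds, and leaving out each array. Promoter sequences were not analysed here.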

Additional observations from a re-analysis of the deposited data

Results flagged for a closer look

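For 6 probe sets the BR response differed between the genotypes by the test of the difference itself, and these are listed here for a closer look. On the log2 scale, *yucca* minus WT, the difference was 2.67 for *XTH19*, 1.60 for AT5G22580, -1.74 for *EXL4*, -2.08 for 251176_at, -2.45 for 252265_at and -1.94 for 261934_at (adjusted p from 0.000665 to 0.0369 in limma, 2 arrays per group). *XTH19* rose in both genotypes and AT5G22580 and *EXL4* fell in both, so these 3 differed in size. The 3 probe sets with no gene named here fell in *yucca* in both BR arrays, and in WT their log2 fold changes were -0.28, 0.46 and 0.42. The direction of all 6 differences was kept under every alternative tried, with values of 1.71 to 2.81 for *XTH19*. With 16 added to every intensity the calls of AT5G22580, 252265_at and 261934_at were lost (adjusted p of 0.124 to 0.143), and without the second *yucca* BR array those of AT5G22580 and 252265_at were lost (adjusted p = 0.115). All 6 calls were lost without the first WT mock array, 5 without the second, and 4 and 5 without the first and the second WT BR array. Groups of 2 arrays allow no search for single deviant arrays.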

How the results depend on the processing

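None of the 78 named transcripts that were called changed direction under any of 15 alternatives, and 37 kept their call under all of them. Of the others, 41 lost it without 1 array, and 61 of the 78 kept it under every alternative that keeps all 4 arrays. Fits of all 8 arrays called 401 rises and 377 falls, and fits without the B criterion or with an assumed proportion of 0.05 called 430 and 396. Without 1 array 81 to 98 rises and 46 to 143 falls were called, and 131 to 175 calls were shared with those of all 4 arrays. The other alternatives stayed within 1.5 times of the counts reported. Quantile normalization gave 54.9% and equal medians 54.4% of calls as rises, against 55.3%, and none of the 15 alternatives moved the median of all probe sets by over 0.1.

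The interaction counts rest on few arrays. Responses higher in *yucca* numbered 4 with equal medians, 1 with 16 added and 16 with an intensity trend, and those lower numbered 7 with quantile normalization, 9 with equal medians and 31 with the trend. Without 1 array, 0 to 18 were higher and 0 to 128 lower. The cause was not tested. Same-numbered arrays deviated together (r of 0.407 in *yucca* and 0.226 in WT). With 2 pairs and no label that says so, it is not known whether the numbers pair the samples. With the replicate block 230 rose and 216 fell, and 68 responses were higher and 111 lower in *yucca*, among them those of *UGT73B4*, *UGT72B1*, *EXPA11*, *PME41* and *LAX3*. The calls of *ACS11*, *BBX27*, *CSLC4* and *MYB50* were lost with the block. With 2 arrays per group, and dim transcripts near background, small changes were not detectable.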
